A study of Homo sapiens with 10 samples.

Results

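The 50 genes described here code for the machinery of late G2 phase and mitosis: the cyclin-CDK engine, the mitotic kinases, the spindle checkpoint, the kinetochore, the spindle motors, cytokinesis and chromosome structure. They come from a named list of mitotic genes that sets no threshold on values but was chosen with earlier results of these data known, and all 50 had a row among the 12373 genes of the count matrix. Every one of them had UMIs in every population. They were measured by inDrop, a droplet method that gives each cell a barcode and counts single RNA molecules by unique molecular identifiers (UMIs). Kuramochi, a human ovarian cancer line labelled epithelial and BRCA2-mutant, was taken through 1 serial escalation of olaparib, a PARP inhibitor. The untreated population (C) and the populations at 1, 2.5, 5, 10, 20, 40, 80, 160 and 320 µM (T1, T2.5, T5, T10, T20, T40, T80, T160 and T320) all carry the same genotype, and treated cells were kept in drug until the culture was confluent. Each population is 1 library, so a difference between populations is also a difference between libraries and no contrast of 2 populations has a test.

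The 18209 cells gave 51277639 UMIs, 1976069 (T5) to 9343704 (C) per library, with medians of 1145 (T2.5) to 2974.5 (T80) UMIs per cell. Of the 17195 distinct barcodes, 970 (5.6%) occurred in 2 or more libraries, and whether these are shared cells was not tested. Library C stood apart: its mitochondrial share was 11.5% against 7.08% to 9.31% elsewhere, and 605 of its 1845 cells held more than 3 times the median UMIs, against 276 in T2.5, 103 in T5 and 0 in the other libraries. A metadata table lists 8240 of the cells (45.3%). Its file name refers to G1, and the listed share was 24.6% in C and 40.2% to 54.8% in treated populations. Of 10 Müllerian and carcinoma markers, 9 had a row and summed to 522 (T160) to 2574 (T2.5) counts scaled to 1000000 per library (CPM), though CDH1 had no row and EPCAM was listed at 0 in C. Their sum relative to C was 0.826 in T1, 0.603 in T20, 0.263 in T80 and 0.235 in T320. Leukocyte markers (1 of 10 with a row) reached at most 43.9 CPM, in T320, and endothelial markers (3 of 6) at most 14.3, in C. The fibroblast list (4 of 8 with a row; DCN and LUM without one) summed to 0.253 UMIs per 10000 in C, 21.8 in T5 and 0 in T320, most of it COL3A1 and COL1A1. The part of these markers, of depth and of mitochondrial RNA in the mitotic values was not tested.

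As background, entry into mitosis is driven by CDK1 bound to cyclin B, with the Polo and Aurora kinases acting alongside it. The spindle checkpoint holds the anaphase-promoting complex (APC/C) back until every kinetochore is attached to microtubules, and APC/C then marks cyclin B for destruction. Transcription of these genes is repressed in resting and early G1 cells by the DREAM complex and is raised in G2 by MYBL2 and FOXM1, mostly through short promoter elements, the CHR and the CCAAT box. Their RNA is therefore commonly read as a sign of how many cells are in G2 or mitosis. PARP inhibitors leave cells without homologous recombination with unrepaired DNA breaks, and such cells often stop in G2.

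Per total UMIs, mitotic RNA was highest in untreated cells, 1.84-fold lower at first exposure and lowest at 20 µM. Among treated populations it was nearest to the untreated level at 320 µM. Summed over the 50 genes, the level was 71.9 UMIs per 10000 UMIs in C and, over the 9 doses from T1 to T320, 39, 38.9, 41.7, 49.8, 32.1, 44, 47.7, 56.8 and 65.2. Relative to C this was 0.543 in T1 (95% counting interval 0.534 to 0.551), 0.447 in T20 (0.439 to 0.455) and 0.906 in T320 (0.892 to 0.921). These intervals are exact and cover counting error only, not the spread between cultures. Restricted to cells with at least 2000 UMIs, the level was 71.5 in C, 37.6 in T1 and 66.3 in T320. These levels depend on scaling to total UMIs. The effective library size by edgeR's TMM factors was below the total in C (8622470 against 9343700). In T320 it was above the total (3171420 against 2826110). With TMM scaling T320 would therefore stand further below C, and the sum was not recomputed that way. In a sum, fewer mitotic cells and less mitotic RNA per cell cannot be told apart.

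Within unlisted cells the sum was 92.3 UMIs per 10000 in C, 76.7 in T1, 56.2 in T20, 108 in T160 and 104 in T320. Per total UMIs the last 2 doses thus stood above C there. Over all cells, the TMM effective size was above the total in T160 as well (8482240 against 7624190). Whether the order in unlisted cells holds with TMM factors was not checked. Within listed cells the sum was 26.7 in C, 14.7 in T1, 10.2 in T20 and 13.7 in T320, and no treated population reached the untreated level. The plot of mitotic transcripts by population shows the 3 series side by side.

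**Figure D1:**
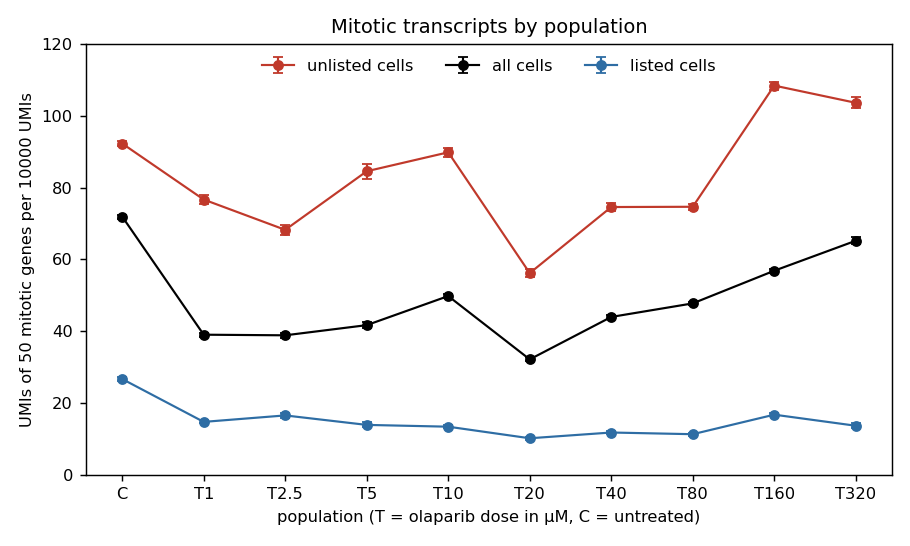
UMIs of the 50 mitotic genes per 10000 UMIs (y axis) in each of the 10 populations (x axis), for unlisted cells (red), all cells (black) and listed cells (blue); bars are exact 95% counting intervals and each point is 1 library. Over all cells the level was 71.9 in C, 32.1 in T20 and 65.2 in T320, and unlisted cells stood above listed cells in every library.

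Members differed in where they were lowest and highest. The lowest of the 10 values was in T20 for 23 members, in T1 for 11, in T2.5 for 6, in T40 for 4 and in T5, T80 and T160 for 2 each. The highest was in C for 27 members, in T320 for 17, in T160 for 4, and in T1 and T10 for 1 each, CENPF and BUB1. The ratio of highest to lowest CPM ran from 1.67 for MKI67 to 6.49 for PIMREG.

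Between C and T1, 18 members were lower by at least 1 on the log2(CPM + 10) scale (2-fold, with 10 CPM added to both sides) and 0 were higher, of 43 members that reached 50 CPM in either population. Among all 4186 genes measured that way 4.83% were as much lower and 7.57% as much higher. The median difference was -0.97 for the measured members and -0.07 for all genes measured. With no CPM minimum the count was also 18 lower, now of 50 members, where the share over all genes was 2.28%, and 48 of the 50 differences were below 0. Within unlisted cells alone 5 of 47 members were lower and 1 was higher (median -0.36), where 3.74% of all measured genes were lower and 7.32% higher. Within listed cells alone 9 of 15 were lower and 0 higher (median -1.15), where 3.93% of all measured genes were lower and 7.09% higher. Several of these 15 reached 50 CPM in C only, such as KIF20A (132 CPM in C, 27.7 in T1) and PIMREG (59.7 and 4.01). The minimum therefore favours lower calls in this count. With no minimum, the sum of the 50 members in listed cells of T1 was 0.552 of C (counting interval 0.533 to 0.573).

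Between C and T80, 9 of 44 measured members were lower and 1, HMGB2, was higher, against 13.0% of all measured genes lower and 9.25% higher. Between C and T320, 6 of 46 were lower and 1, again HMGB2, was higher. The share of all measured genes was 11.6% lower and 15.4% higher, so the members' share of lower genes was near the background there. The median member stood at -0.25 in T320 and the median gene at 0.12. Scaling with edgeR's TMM factors moved the median gene to -0.22, the median member to -0.50 and the members' counts to 9 lower and 1 higher, where 18.6% of all measured genes were lower and 9.2% higher. With that scaling too the members' share of lower genes was near the background. Between T1 and T320, 12 of 39 measured members were higher in T320 and 0 were lower, where 12.9% of all measured genes were higher and 12.0% lower. These comparisons share libraries C, T1 or T320 and are not independent.

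**Figure D2:**
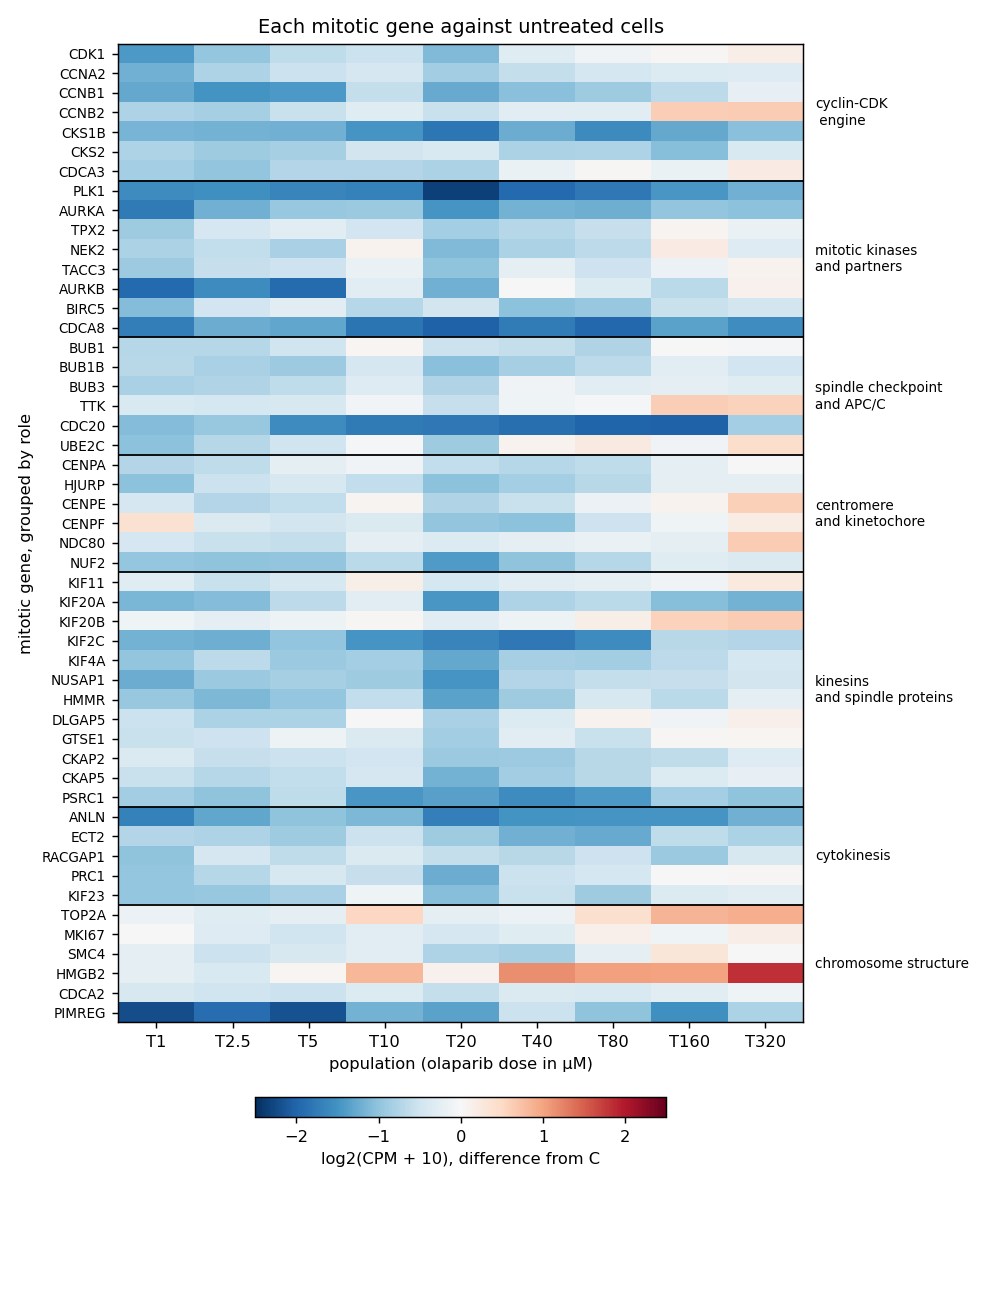
Difference from C in log2(CPM + 10) (colour) for each of the 50 mitotic genes (rows, grouped by role) in the 9 treated populations (columns, dose in µM). Blue marks values below C: 48 of the 50 genes are below 0 in T1, while HMGB2 reaches 1.82 in T320 and CDCA8 stands at -1.55 there.

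Promoter sequences were compared because the values of members took different courses along the escalation, although only HMGB2 had a slope that passed the test given below. RefSeq promoters (GRCh38.p14, 250 bases before to 50 after the start) were found for 40 of the 50 members, and HMGB2 was not among them. The CHR, searched as TTTGAA on both strands, was in 29 of the 40 (72.5%), against 9.65% of the 9696 matrix genes with a promoter and 15.4% of all 27305 promoters. The CCAAT box, searched as CCAAT on both strands, was in 31 (77.5%), against 36.7% and 35.7%. Both were in 24 (60.0%), against 4.0% and 6.08%. A letter match is a description and does not show that a factor binds.

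The promoters of the 2 members with the most negative and the 2 with the most positive slope over dose, among those with an entry, are shown so that the groups can be set side by side. They run 5′ to 3′ on the strand of the gene, and capitals mark matches to either motif on either strand. PSRC1 lies at chr1:109283096-109283395 on the minus strand, CDCA8 at chr1:37692266-37692565 on the plus strand, CCNB2 at chr15:59104896-59105195 on the plus strand and TOP2A at chr17:40417847-40418146 on the minus strand.
PSRC1: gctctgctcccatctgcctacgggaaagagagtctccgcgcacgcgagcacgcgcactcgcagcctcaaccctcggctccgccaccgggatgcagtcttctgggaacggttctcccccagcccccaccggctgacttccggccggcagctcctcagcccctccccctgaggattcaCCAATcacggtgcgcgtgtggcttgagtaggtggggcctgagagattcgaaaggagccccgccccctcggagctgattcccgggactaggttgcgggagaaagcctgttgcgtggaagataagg
CDCA8: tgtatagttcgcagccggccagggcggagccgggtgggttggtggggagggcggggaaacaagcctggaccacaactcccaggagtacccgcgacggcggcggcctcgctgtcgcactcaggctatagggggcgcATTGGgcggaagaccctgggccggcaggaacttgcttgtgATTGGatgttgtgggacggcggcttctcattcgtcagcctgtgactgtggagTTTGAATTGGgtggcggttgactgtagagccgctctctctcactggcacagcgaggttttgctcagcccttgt
CCNB2: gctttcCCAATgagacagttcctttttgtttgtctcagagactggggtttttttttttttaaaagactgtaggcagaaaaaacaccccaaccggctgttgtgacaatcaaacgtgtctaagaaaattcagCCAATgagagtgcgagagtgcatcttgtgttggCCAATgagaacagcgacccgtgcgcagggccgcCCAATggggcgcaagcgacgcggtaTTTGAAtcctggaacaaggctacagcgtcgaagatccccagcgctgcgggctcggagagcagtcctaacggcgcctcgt
TOP2A: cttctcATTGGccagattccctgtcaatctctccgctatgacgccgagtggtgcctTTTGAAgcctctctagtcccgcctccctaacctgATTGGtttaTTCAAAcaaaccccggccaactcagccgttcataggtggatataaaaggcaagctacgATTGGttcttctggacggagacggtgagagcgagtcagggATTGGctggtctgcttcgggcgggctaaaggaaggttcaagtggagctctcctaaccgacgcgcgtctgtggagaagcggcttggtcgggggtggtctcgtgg
The PSRC1 window held 1 CCAAT match and no TTTGAA. CDCA8 held a CHR starting 23 bases before the start and 3 CCAAT matches, 1 of which shares a base with the CHR. CCNB2 held a CHR at 29 bases and 4 CCAAT matches, and TOP2A held 2 CHR and 4 CCAAT matches. None of the 4 slopes passed the test, so these windows are a description only.

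The cyclin-CDK engine (7 genes) summed to 13.1 UMIs per 10000 in C, 5.49 in T1, 4.83 in T20 and 9.53 in T320. Values are given below in the order C, T1, T2.5, T5, T10, T20, T40, T80, T160 and T320, for the 4 members of highest mean CPM in each role. CDK1, the kinase that drives mitotic entry, stood at 173 CPM in C and, from T1 to T320, 57.9, 84.1, 108, 117, 75.2, 139, 163, 177 and 195 CPM. It was 3.0-fold lower in T1 than in C (counting interval 2.65 to 3.39) and then higher at each dose from T20 to T320. CCNB1, the cyclin B that activates it, was at 158 CPM in C and, from T1 to T320, 59, 49.6, 52.1, 101, 60.0, 71.5, 80.7, 97.2 and 137 CPM. All 9 treated values lay below C, and the T2.5 value was the lowest. CCNB2, another B-type cyclin, was at 74.9 CPM in C and, from T1 to T320, 39.5, 37.8, 47.6, 59.1, 47.5, 59.8, 60.1, 120.1 and 121 CPM. Its T160 and T320 values both exceeded C, which those of CCNB1 did not. CKS1B, a small CDK-binding protein needed for destruction of the inhibitor p27, was at 721 CPM in C and, from T1 to T320, 316, 314, 306, 253, 200.3, 299, 233, 292 and 346 CPM. It stayed below C by more than 2-fold in every treated population. The others, CCNA2 (cyclin A), CKS2 and CDCA3, ranged from 22.1 to 28.3 CPM in T1 and from 40.7 to 57 in T320. CKS2 shares 10.9% of the 31-base words of its last 500 bases with other genes, so its count is uncertain.

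The kinases and their partners (8 genes) summed to 13 UMIs per 10000 in C, 4.76 in T1, 5.06 in T20 and 9.43 in T320. AURKB, the kinase of the chromosomal passenger complex that corrects wrong attachments, was at 219 CPM in C and, from T1 to T320, 49.5, 66.9, 50.1, 180.0, 90.0, 220.4, 172, 133 and 237 CPM. It was 4.43-fold lower in T1 than in C (counting interval 3.89 to 5.05) and regained the untreated level in T40 and T320. AURKA, the centrosomal kinase, was at 166 CPM in C and, from T1 to T320, 42, 66.9, 81.5, 83.3, 53.1, 67.5, 65.5, 79.1 and 76.1 CPM. It did not regain it: its T320 value was 2.19-fold below C, and 15.6% of its end sequence is shared. TPX2, which activates AURKA on the spindle, was at 317 CPM in C and, from T1 to T320, 168, 234, 261, 225, 172, 190.3, 209.7, 331 and 281 CPM. TACC3, an AURKA substrate that strengthens spindle fibres, was at 114 CPM in C and, from T1 to T320, 56.2, 72.9, 75.9, 101, 52, 94.3, 76.7, 103 and 121 CPM. Both ended within 1.13-fold of C, lower for TPX2 and higher for TACC3. PLK1, the Polo kinase (chr16:23677656-23690367, GRCh38), was singled out after its values were seen: it was at 193 CPM in C and, from T1 to T320, 57.9, 59.8, 54.7, 53.1, 30.3, 43.2, 48.9, 63.6 and 78.9 CPM. Its T20 value was 6.37-fold below C. CDCA8 (borealin, a passenger-complex subunit), also singled out, was at 148 CPM in C and, from T1 to T320, 37.8, 56.6, 54.1, 34.9, 29.2, 37.2, 30.7, 53 and 44.2 CPM, and its highest treated value, in T2.5, was far below C. The other members, NEK2 (a centrosome kinase, 20.1% shared) and BIRC5 (survivin, of the passenger complex), were at 63.1 and 79.3 CPM in C, 24 and 55 in T20, and 48.8 and 55.2 in T320.

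The checkpoint and APC/C genes (6) summed to 9.19 UMIs per 10000 in C, 4.72 in T1, 4.53 in T20 and 9.61 in T320. UBE2C, the ubiquitin-conjugating enzyme that starts chains for APC/C, was at 386 CPM in C and, from T1 to T320, 186, 232, 272, 371, 204, 411, 451, 363 and 524 CPM. It was above C in T40, T80 and T320. CDC20, the activator that the checkpoint holds in check, went the other way, at 168 CPM in C and, from T1 to T320, 74.4, 82.2, 50.1, 42.5, 41.8, 38.2, 34.8, 33.7 and 89.2 CPM. From T10 to T160 it lay between 33.7 and 42.5 CPM, before 89.2 in T320. CDC20 shares 16.8% of its end sequence. TTK, the kinase that starts checkpoint signalling, was at 70.1 CPM in C and, from T1 to T320, 51.5, 49.3, 50.6, 66.7, 43.7, 64.6, 68.7, 113 and 109 CPM, with T160 and T320 above the other 8 populations. BUB3, a checkpoint protein bound to BUB1, was at 171 CPM in C and, from T1 to T320, 92.3, 96.9, 106, 134, 97.3, 161, 139, 145 and 136 CPM, a narrow range. BUB1 and BUB1B, the checkpoint kinase and its relative, ranged from 30.9 to 37.3 CPM in T1 and from 37.5 to 66.2 in T320, and BUB1B shares 26.4% of its end sequence.

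The centromere and kinetochore genes (6) summed to 6.45 UMIs per 10000 in C, 6.14 in T1, 3.04 in T20 and 7.15 in T320. CENPF, a large protein of the outer kinetochore and the nuclear matrix of G2 cells, was at 352 CPM in C and, from T1 to T320, 461, 273, 255, 271, 173, 168, 242, 328 and 399 CPM. It was 1.31-fold higher in T1 than in C (counting interval 1.24 to 1.38), and CENPF and MKI67 were the only 2 of the 50 members not below C in T1. CENPE, the kinesin that moves chromosomes to the equator, was at 60.6 CPM in C and, from T1 to T320, 43.1, 32.3, 35.9, 63.8, 32, 38, 54.1, 64.7 and 97.3 CPM. NUF2, a subunit of the NDC80 complex that binds microtubules, was at 97.4 CPM in C and, from T1 to T320, 44.6, 43.2, 44.5, 57.2, 30.1, 43.4, 55.2, 77.6 and 73.2 CPM. CENPE ended above C and NUF2 below it. HJURP, the chaperone that loads the centromeric histone CENPA, was at 77.6 CPM in C and, from T1 to T320, 33, 50.2, 56.2, 47.2, 32.9, 38.4, 44.5, 63.6 and 63.7 CPM. CENPA itself and NDC80 were at 24.7 and 32.6 CPM in C, 10.9 and 21.7 in T1, and 25.1 and 56.6 in T320, the highest value of both.

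Kinesins and spindle proteins (12 genes) summed to 14.2 UMIs per 10000 in C, 7.75 in T1, 5.68 in T20 and 10.9 in T320. KIF20A, which carries the passenger complex to the midzone, was at 242 CPM in C and, from T1 to T320, 104, 109, 149, 199, 81.3, 137, 147, 111 and 100.5 CPM. It was 2.4-fold lower in T320 than in C (counting interval 2.12 to 2.73), and its treated value nearest to C was that of T10. CKAP5, a microtubule polymerase, was at 205 CPM in C and, from T1 to T320, 136, 121, 130.1, 150.4, 84.4, 108, 122, 159 and 176 CPM. CKAP2, a spindle-pole protein, was at 135 CPM in C and, from T1 to T320, 103, 87.7, 90.1, 93.2, 65.6, 66.9, 79.7, 83.5 and 105 CPM. Both were lowest in T20 and below C in every treated population. NUSAP1, which links microtubules to chromosomes, was at 207 CPM in C and, from T1 to T320, 81.5, 105, 112, 107, 68.2, 120.2, 134, 135 and 148 CPM, but 72.5% of its end sequence is shared, so this count is uncertain. The other 8 (KIF11, KIF20B, KIF2C, KIF4A, HMMR, DLGAP5, GTSE1 and PSRC1) ranged from 37.7 to 178 CPM in C, from 8.7 to 56.2 in T20 and from 13.8 to 116 in T320. KIF4A shares 17.9% of its end sequence. KIF20B, a kinesin of late cytokinesis, ended 1.64-fold higher in T320 than in C (counting interval 1.43 to 1.87). KIF2C, the depolymerase that removes wrong attachments, was 3.34-fold lower in T80 than in C (counting interval 2.99 to 3.73) and PSRC1, a microtubule-binding protein, stayed under 50 CPM in every population.

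The cytokinesis genes (5) summed to 6.23 UMIs per 10000 in C, 2.52 in T1, 2.39 in T20 and 4.23 in T320. ANLN, the scaffold of the contractile ring, was at 233 CPM in C and, from T1 to T320, 65.7, 89.3, 111, 101, 64.7, 76.6, 77.1, 77.3 and 96.2 CPM. It was 2.42-fold lower in T320 than in C (counting interval 2.14 to 2.76), and none of its treated values exceeded 111. ECT2, the exchange factor that activates RhoA at the equator, was at 74 CPM in C and, from T1 to T320, 40.8, 39.3, 35.4, 47.7, 35.5, 26.3, 25, 44.3 and 38.6 CPM. KIF23, the motor of centralspindlin, was at 81.1 CPM in C and, from T1 to T320, 36.3, 37.1, 42, 74.7, 33.9, 51.9, 39.3, 61.5 and 65.5 CPM. ECT2 and KIF23 stood below C throughout, and KIF23 came nearest in T10. PRC1, which bundles midzone microtubules, was at 174 CPM in C and, from T1 to T320, 84.1, 103, 129.6, 113, 67.7, 117, 126, 174 and 179 CPM, with 80.0% of its end sequence shared. RACGAP1, the partner of KIF23, was lowest in T1 at 25.1 CPM and highest in C at 60.8.

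The genes of chromosome structure (6) were the group that ended highest, at 9.79 UMIs per 10000 in C, 7.64 in T1, 6.62 in T20 and 14.3 in T320. HMGB2, a DNA-bending chromatin protein (chr4:173331695-173335125, GRCh38), was at 102 CPM in C and, from T1 to T320, 83.7, 76.1, 105, 188, 110.3, 240.0, 217, 213 and 384 CPM. It was 3.78-fold higher in T320 than in C (counting interval 3.46 to 4.13) and above C in 7 of the 9 treated populations. TOP2A, the topoisomerase that untangles sister chromatids, was at 238 CPM in C and, from T1 to T320, 215, 190.0, 200.4, 344, 198, 214, 319, 438 and 453 CPM, with its highest values at the last 2 doses. SMC4, a core subunit of condensin, was at 378 CPM in C and, from T1 to T320, 319.9, 258, 285, 309, 218, 209.5, 317, 466 and 380.4 CPM. MKI67, the Ki-67 protein that coats mitotic chromosomes, was at 113 CPM in C and, from T1 to T320, 113, 88.3, 76.9, 92.5, 81.1, 89.9, 123, 103 and 128 CPM, the narrowest range of all members. CDCA2, which brings a phosphatase to chromosomes, was at 20.5 CPM in C and 10.1 in T20, with 759 UMIs over all populations. PIMREG, a mitotic regulator singled out for its range, was at 128 CPM in C and, from T1 to T320, 19.7, 26.9, 20.2, 50.8, 44.4, 85.4, 58.5, 37.6 and 69.4 CPM, lowest in T1 and nearest to C in T40.

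The order of doses was tested with the quasi-likelihood test of edgeR, as a slope over the rank of dose adjusted by Benjamini-Hochberg over all 11387 genes tested. HMGB2 rose (slope 0.20 log2 units per step, adjusted p = 0.00839) and 0 of the 50 members fell. Over all genes 8.03% rose and 8.99% fell, so 1 of 50 is below both shares. At an unadjusted p under 0.05 there were 11 members, against 32.5% of all genes. The populations come from 1 culture history and are not independent, although the test takes them so. Simulated counts for this fit were drawn independently for each library. In them the test found 36 of 100 slopes that reached 4-fold from C to T320 and 3 of 100 that reached 2-fold. HMGB2 was called in every alternative that was run. The most negative slopes, none of which passed, were those of PSRC1 (-0.16, adjusted p = 0.0938), CDCA8 (-0.16, 0.0612), CDC20 (-0.16, 0.0784), PLK1 (-0.13, 0.138) and ANLN (-0.13, 0.0876). The next most positive after HMGB2 were CCNB2 (0.10, 0.135) and TOP2A (0.09, 0.0912), whose promoters are shown above beside those of PSRC1 and CDCA8. The slope was negative for 31 members, and for 21 with scaling by library totals.

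Leaving out library C changed the calls. Over T1 to T320, 9 members rose and 0 fell: CDK1, CCNB1, CCNB2, CDCA3, AURKB, TTK, UBE2C, NDC80 and HMGB2 (8.46% of all genes rose and 8.55% fell in that fit). CCNB1 had a slope of 0.12 there (adjusted p = 0.044) against -0.01 with C. Over C to T80 alone, 5 members fell (CDCA8, CDC20, KIF2C, PSRC1 and ECT2) and HMGB2 rose, where 4.63% of all genes fell and 3.68% rose. Within listed cells 13 of 48 members tested fell and 1 rose, where 8.9% of all genes fell and 8.0% rose. Those that fell were CKS1B, PLK1, TPX2, BIRC5, CDCA8, CDC20, CENPF, KIF20A, KIF2C, HMMR, ANLN, ECT2 and MKI67. MKI67 had a slope of -0.22 in listed cells (adjusted p = 0.0297). Within unlisted cells HMGB2 and CCNB2 rose and 0 fell, beside 7.6% and 8.67% of all genes. By DESeq2's test HMGB2 and TOP2A rose and CDCA8, ANLN and ECT2 fell, beside 13.2% and 14.9%.

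Listed cells were poor in mitotic RNA in every library. All 50 members were higher in unlisted than in listed cells in each of the 10 libraries, and 43 were at least 2-fold higher in all 10, as were 116 of the 11387 genes tested. The median difference over libraries was 1 or more for 48 members, against 2.1% of all genes. The median member stood at 2.12 and the median gene at 0.00 on the log2(CPM + 10) scale. How cells were listed was not given in the sources used here and may have used these genes, so this contrast describes the listing and carries no test. Listed cells were also deeper than unlisted cells in all 10 libraries: the medians were 5946 and 1669.5 UMIs in C, 2624 and 1341 in T1, 3423.5 and 1488 in T20, and 1934 and 1794 in T320. The part of that depth in the CPM contrast was not tested.

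The contrast was strongest for MKI67 (median 3.51), TOP2A (3.38), UBE2C (3.26) and AURKB (3.14). In C, MKI67 was at 14.5 CPM in listed and 157 in unlisted cells, and in T320 at 3.31 and 221. On this scale, with 10 CPM added, it was weakest for PSRC1 (0.84), BUB3 (0.99) and CKAP5 (1.01), of which the last 2 act outside mitosis as well. PSRC1 lies near the floor, so the added 10 CPM narrows its difference. It was at 8.97 CPM in listed and 50.6 in unlisted cells of C, a wider ratio than that of BUB3. BUB3 was at 95.9 and 204 CPM in listed and unlisted cells of C. Members 2-fold higher numbered 48, 49, 44, 48, 49, 47, 47, 47, 50 and 49 of 50 in the 10 libraries from C to T320, where the share of all genes was 1.39%, 1.91%, 1.82%, 2.59%, 2.37%, 2.33%, 2.7%, 2.44%, 2.46% and 3.17%. Mitotic RNA in listed cells was not at 0: CDK1 was at 30.0 CPM in listed cells of C and at 15.1 to 35.9 in those of treated populations.

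**Figure D3:**
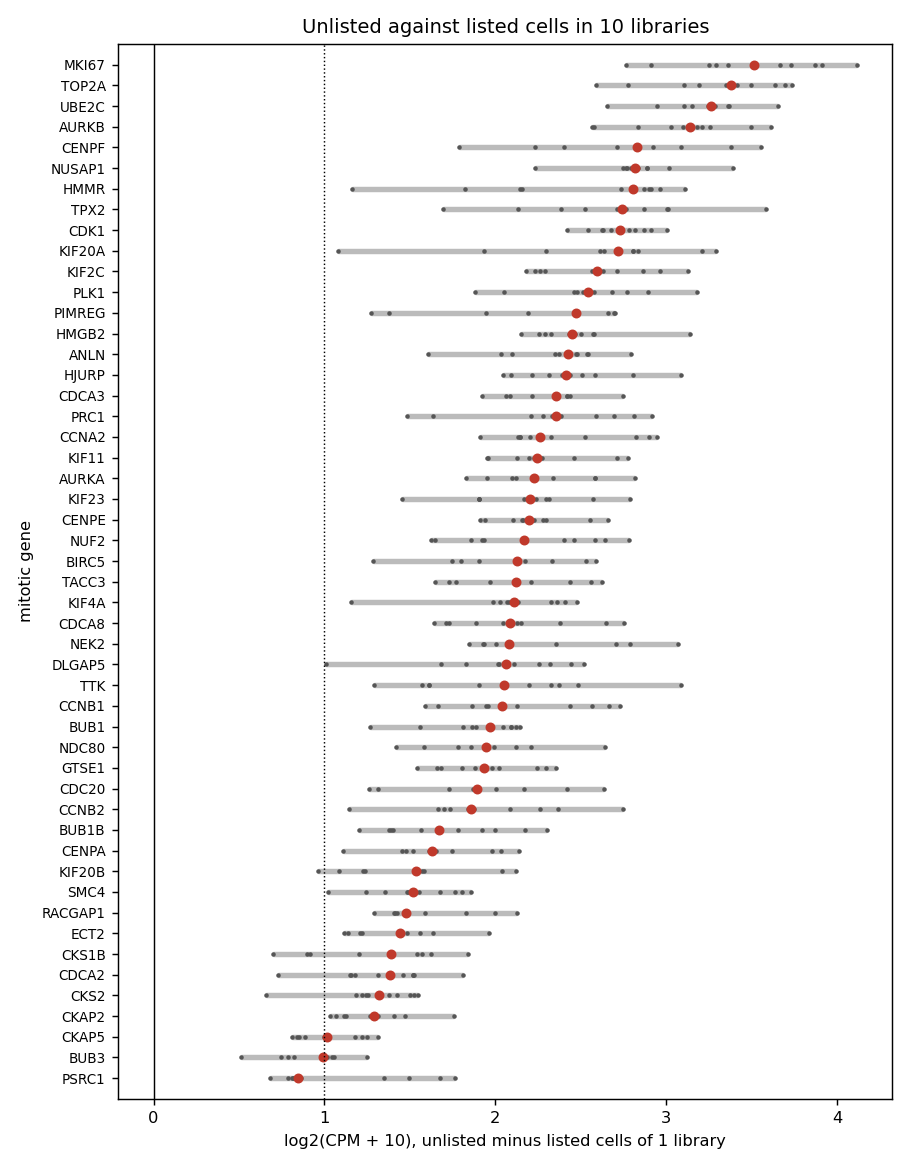
Unlisted minus listed cells in log2(CPM + 10) (x axis) for each mitotic gene (y axis): small points are the 10 libraries, grey bars their range and red points the median; the dotted line marks 1 (2-fold). All values lie above 0, from a median of 0.84 for PSRC1 to 3.51 for MKI67. PSRC1 is near the floor in listed cells, where the added 10 CPM narrows the difference.

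To compare cells at equal depth, 1000 UMIs were drawn from each cell, leaving out shallower cells (10 in T80 to 614 in T2.5). Unlisted cells kept were 1081 of 1392 in C, 737 of 1089 in T1, 498 of 821 in T20 and 1346 of 1352 in T80. Listed cells kept were 399 of 453, 1146 of 1223, 604 of 640 and 906 of 910. Losing unlisted cells, which were richer in mitotic RNA, can lower the shares of T1 and T20 beside T80. The size of this was not tested. Cells with 3 or more mitotic UMIs made up 81.8% of C (79.7% to 83.7%, exact binomial), 42.6% of T1, 54% of T2.5, 46.4% of T5, 47.1% of T10, 40.8% of T20, 54.4% of T40, 55.1% of T80, 55% of T160 and 61.7% of T320. The untreated share stood above all the others, and no interval of a treated population reached it. These intervals cover counting error over the cells of each library only, not the spread between cultures. Whether they are apart or overlap is therefore a description of the libraries and no test of dose. Before drawing, the shares were 97.7% in C, 70.3% in T1 and 77.9% in T320. A stricter count, 10 or more mitotic UMIs, was added after the data were seen. It gave 26.6% of C, 10.2% of T1, 8.13% of T2.5, 12% of T5, 16.5% of T10, 6.62% of T20, 11.4% of T40, 11% of T80, 18.6% of T160 and 24.9% of T320. By this count the counting interval of T320 (22.4% to 27.6%) overlapped that of C (24.3% to 28.9%), and the share in T20 was the lowest.

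Cells rich in mitotic RNA were almost all unlisted. In listed cells the share with 10 or more was at most 1.0%, in C, and 0 in T1, T5, T20, T40, T80 and T320, which at 3 counts allows 0.262% (T1) to 0.89% (T5), and by the exact binomial interval up to 0.321% and 1.09%. In unlisted cells it was 36% in C, 26.1% in T1, 14.7% in T20, 43.2% in T160 and 43.9% in T320. With 3 or more, listed cells of C reached 47.9%, against 10.8% to 28.2% in listed cells of treated populations. In C the cells under 2000 UMIs had 3 or more in 93.4% and the deeper cells in 75.4%, while for 10 or more the shares were 27.4% and 26.1%. The variance of mitotic UMIs was 2.25 times their mean in the shallow C cells and 4.52 times in the deep ones. The libraries hold 1 cell line, with no other cell type in which free RNA in droplets could be measured, and its part in these shares was not tested.

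**Figure D4:**
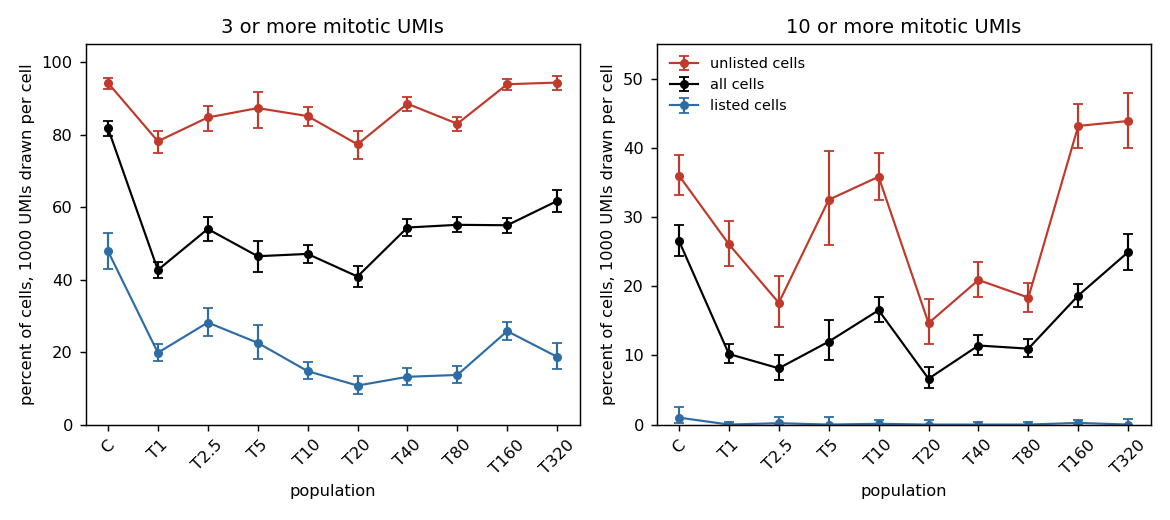
Percent of cells (y axis) with 3 or more (left) or 10 or more (right) mitotic UMIs among 1000 UMIs drawn per cell, by population (x axis), for unlisted (red), all (black) and listed (blue) cells; bars are exact 95% binomial intervals. At 10 or more, all cells ran from 26.6% in C through 6.62% in T20 to 24.9% in T320, and listed cells stayed at or under 1.0%.

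Members were then compared inside cells that hold mitotic RNA. For each gene the cells were chosen by 10 or more UMIs of the other 49 members at 1000 UMIs, a cut added after the data were seen. This left 306 to 383 cells in C, 163 to 201 in T1, 57 to 71 in T20 and 251 to 283 in T320. Between C and T1 the median member difference was 0.19 in these cells (21 of 50 below 0), against -0.87 over all cells. Choosing cells by mitotic RNA sets the same floor in both populations, so a shift of the whole set cannot be read from this contrast. The sign depends on the cut: with 3 or more UMIs of the other members, the cut set first, the median was -0.32 and 37 of 50 were below 0. At 10 or more, 4 members were 2-fold higher in T1 (CENPF, MKI67, TOP2A and KIF11) and 2 lower (PIMREG and CDCA8), and over all genes in cells so chosen 6.7% were higher and 3.2% lower. The members' counts at that cut were near the background. CENPF stood at 728 CPM in C and 2628 in T1 (3.61-fold, counting interval 3.35 to 3.89). MKI67 was at 218 and 637 CPM. PIMREG was at 206 and 95.2. Between C and T320 the median was -0.05 at 10 or more and 0.07 at 3 or more. At 10 or more, 4 members were 2-fold higher (HMGB2, TOP2A, KIF20B and TTK) and 4 lower (CDCA8, PSRC1, AURKA and ANLN), beside 14.5% and 8.54% of all genes. HMGB2 stood at 183 CPM in C and 783 in T320, and CDCA8 at 321 and 103. With 3 or more other-member UMIs, 1 member (CENPF) was higher and 5 lower in T1, beside 4.77% and 1.94% of all genes, and 3 were higher and 2 lower in T320, beside 12.6% and 7.93%.

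**Figure D5:**
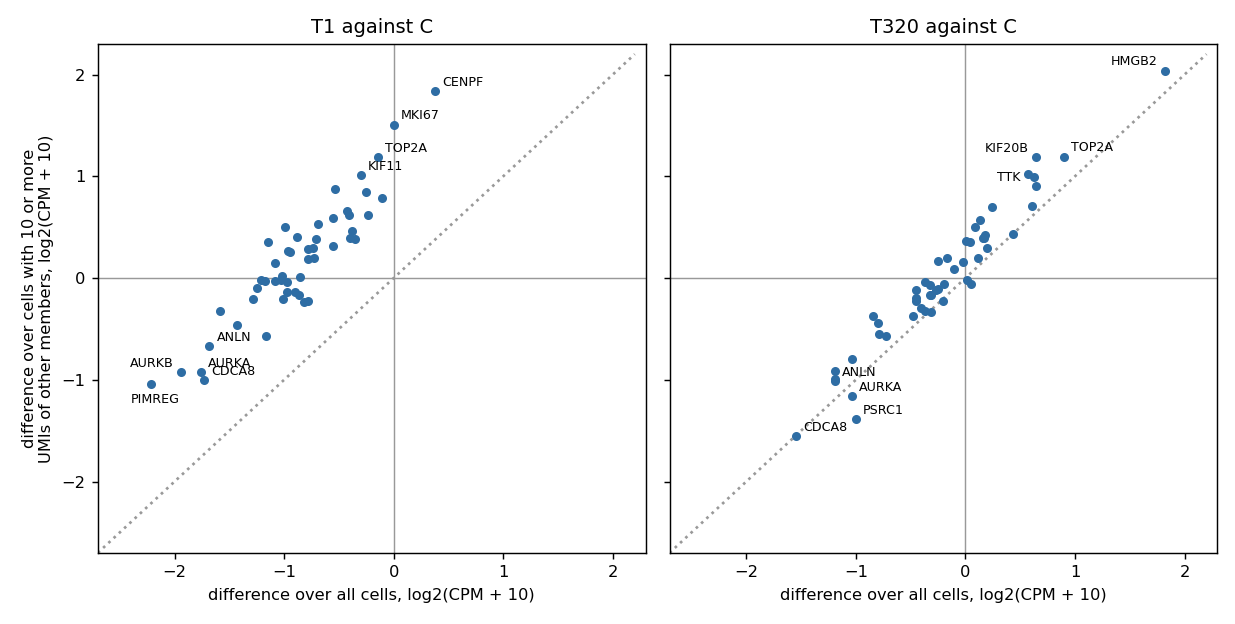
Difference from C in log2(CPM + 10) over all cells (x axis) and over cells with 10 or more UMIs of the other members at 1000 UMIs (y axis), for T1 (left) and T320 (right); each point is 1 mitotic gene, and genes past 1 on the y axis or 1.6 on the x axis are named. In T1 every point lies above the dotted line of equal values, around a median of 0.19 on the y axis against -0.87 on the x axis (the median is -0.32 when cells are chosen by 3 or more UMIs), while in T320 the points lie near the line. The choice of cells sets the same floor of mitotic RNA in both populations, which by itself narrows a difference of the whole set.

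Position was tabulated for the members with values known. On chromosome 1 lie CKS1B, NEK2, CDCA8 (chr1:37692418-37709719, GRCh38), CDC20 (chr1:43358955-43363203), CENPF, NUF2, KIF2C and PSRC1. Between C and T80, 5 of these 8 were 2-fold lower (median -1.50), against 5 of the 42 members elsewhere (median -0.52). All 1162 chromosome 1 genes tested had a median of -0.54 with 22.9% lower, and the 10074 genes elsewhere 0.07 with 5.03% lower. Between C and T320 the medians were -0.79 and -0.14 for members and -0.30 and 0.19 for all genes. Between C and T1 they were -1.03 and -0.84 for members and 0.00 for all genes of either kind. The 8 slopes were all negative (median -0.10), like the median of all genes on the chromosome (-0.09). The part of the chromosome in the members' values was not tested.

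Other genes of the pathway were read from lists with the same slope test, where 8.03% of all genes rose and 8.99% fell, and with the T1 difference, where 2.28% of all genes were 2-fold lower and 4.41% higher with no CPM minimum. Among DREAM and FOXM1 regulators, 1 rose and 6 fell of 19 tested. RBL1, a pocket protein, rose (0.17), while LIN9, a core subunit of the complexes (-0.29), E2F2 (-0.15), E2F5 (-0.27), NFYC, which binds the CCAAT box (-0.13), TFDP1 (-0.19) and RBBP4 (-0.16) fell. TFDP1 and RBBP4 share 25% and 27.1% of their end sequence. Positions of the genes in these lists were not tabulated. The part of chromosome 1, whose genes had a median slope of -0.09, was not tested in any list. MYBL2, which opens the G2 programme, was at 355 CPM in C, 115 in T1 and 222 in T320. RBBP4, the other of the 2 with the highest mean, was at 144 CPM in C, 153 in T1 and 61.6 in T320. In T1, 1 of the 19 was 2-fold lower.

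Of the entry phosphatases and WEE kinases, 1 rose and 1 fell of 9. CDC25B, which activates CDK1, rose (0.20) and BORA, which activates PLK1 through AURKA, fell (-0.15). ENSA (16.1% of its end sequence shared) and ARPP19, the small inhibitors of the phosphatase PP2A-B55, were at 131 CPM in C, 119 in T1 and 125 in T320, and at 93.4 CPM in C, 63.7 in T1 and 103 in T320. Among other kinetochore and checkpoint genes, 5 rose and 3 fell of 37. CENPH (0.20), KNTC1 (0.17), CENPM (0.13), DSN1 (0.12) and CENPP (0.16) rose. CENPL (-0.15, 14.3% shared), CENPO (-0.14) and PMF1 (-0.14) fell. SKA2 (12% shared), of the complex that tracks microtubule ends, was at 144 CPM in C, 83.9 in T1 and 106 in T320, and PMF1 (25.3% shared) at 196 CPM in C, 112 in T1 and 88.1 in T320. In T1, 6 of the 37 were lower. Of the anaphase-promoting complex, 3 rose and 1 fell of 19: ANAPC5 (0.10), ANAPC10 (0.16) and ANAPC16 (0.08) rose and ANAPC1, its largest subunit, fell (-0.19). ANAPC10, ANAPC1, PTTG1 and ANAPC11 share 33.2%, 21.2%, 15.6% and 10.1% of their end sequence, so their counts are uncertain. PTTG1 (securin), which APC/C destroys at anaphase, was at 316 CPM in C, 161 in T1 and 462 in T320, and ANAPC11, the RING subunit, at 195 CPM in C, 180.4 in T1 and 284 in T320.

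Of condensin and cohesin genes, 0 rose and 1 fell of 16: PDS5B, a cohesin regulator, fell (-0.13). RAD21, the cohesin subunit cut at anaphase, was at 567 CPM in C, 514 in T1 and 426 in T320, and NIPBL, the cohesin loader, at 162 CPM in C, 370.1 in T1 and 222 in T320. Among other spindle and cytokinesis genes, 1 rose and 3 fell of 24. KIF15, a motor that backs up KIF11, rose (0.17), and KIF18A (-0.14), KIF22 (-0.12) and TUBB (-0.12) fell. The tubulins TUBB and TUBA1B were at 3053 CPM in C, 1681 in T1 and 1417 in T320, and at 2152 CPM in C, 973 in T1 and 1690.0 in T320. TUBA1B shares 55.5% of its end sequence. In T1, 8 of the 24 were lower. The adjusted p-values of the slopes named in these lists ran from 0.00138 (LIN9) to 0.04998 (CENPP) by edgeR's test.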

How the data were processed

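Single-cell RNA of 10 Kuramochi populations was profiled by inDrop, 1 library each. The matrix deposited by the authors holds UMI counts per gene and cell with no normalization, and the deposited metadata table gives depth as a count and mitochondrial RNA as a fraction. Per the submitters' processing notes, Seurat 2.3.2 and the builds hg38 and GRCh38 were used. Which aligner, counter and cell filter were used was not given in the sources used here. Every cell was kept. Doublets were not called and remain. Listed cells were matched to the matrix by name (7322) or, in T40, by barcode with identical UMI totals (918).

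Counts were summed per population and scaled to CPM. Differences are of log2(CPM + 10), called at 1, for genes with at least 100 UMIs in all and, where stated, 50 CPM in either population. Fold intervals are exact conditional binomial, sums exact Poisson and shares Clopper-Pearson (95%); they cover counting error only. Slopes per dose step (0 to 9) used edgeR 4.0.16 (quasi-likelihood F-test, TMM, 8 residual degrees of freedom, Benjamini-Hochberg over 11387 genes, threshold 0.05) in R 4.3.3. Tested on simulated data of 11387 genes, the fit made 3 false calls. Those counts were drawn independently for each library, so this number does not cover the dependence within 1 serial escalation. Alternatives used DESeq2 1.42.0, limma 3.58.1, other scalings, filters, pseudocounts and cell sets. Cells were thinned without replacement to 1000 UMIs. Gene positions and the 31-base words shared between the last 500 bases of transcripts came from GENCODE 29. Of the members, 8 share over 10% of these words. Promoters came from RefSeq (GRCh38.p14).

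The members, roles, lists and tests were chosen with earlier results of these data known. Values in every population are given for the 4 members of highest mean CPM in each role, any member whose slope passed and any whose direction from C to T1 opposed the median; in each list the 2 of highest mean CPM and those whose slope passed are named. Other members named beside a value were singled out after values were seen.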

Additional observations from a re-analysis of the deposited data

How the results depend on the processing

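With 1 library a population, counting error is the only error measured, and depth limited low members most (CDCA2, PSRC1 and CENPA have under 1000 UMIs in all). No paired analysis was possible because each group has 1 library and the labels give no replicate numbers. Of members with a slope, 1 rose and 0 fell. With DESeq2 2 rose and 3 fell, in unlisted cells 2 rose, from C to T80 5 fell, in listed cells 13 fell, and in cells with 2000 or more UMIs 1 fell. Leaving out 1 library at a time gave 1 to 9 that rose (9 without C) and 0 to 2 that fell: CDCA8 and ANLN without T1, CDC20 without T320. The cause was not tested. The slope of CCNB1 turned to 0.12 without C (-0.049 without T320), and that of MKI67 to -0.22 in listed cells. The 18 members lower in T1 became 8 of 43 with a pseudocount of 50 CPM, where 57 of all 4186 measured genes were lower. They became 9 in listed cells (of 15 measured) and 5 in unlisted cells, where 1 was higher. The 1 higher in T80 became 0 with totals without mitochondrial genes and with a pseudocount of 50 CPM. Of all measured genes, 387 of 4577 and 186 of 4206 were higher at these settings. The 6 lower in T320 became 1 of 46 with that pseudocount, where 288 of all 4617 measured genes were lower. In unlisted cells 2 of 48 members were lower and 3 higher, where 555 of all 4735 measured genes were lower and 818 higher. The members' shares there did not exceed those of all genes. Mitotic UMIs per 10000 relative to C were 0.543 in T1, 0.447 in T20 and 0.906 in T320. These became 0.517, 0.427 and 0.863 without mitochondrial genes, 0.554, 0.457 and 0.926 without cells above 3 times the median UMIs, and 0.552, 0.459 and 0.882 as means over cells. With genes sharing sequence left out, T20 gave 0.469 and T320 0.873, and with cells of 2000 or more UMIs T1 gave 0.525 and T320 0.927. The sum was not recomputed with TMM factors, with which T320 would stand further below C. The percent of cells with 3 or more mitotic UMIs relative to C was 0.522 in T1, 0.499 in T20 and 0.755 in T320. In T1 it was 0.597 at 1500 UMIs, 0.656 for 2 or more, 0.374 for 5 or more, 0.384 for 10 or more and 0.382 without the 5 members of highest mean CPM. In T20 the same settings gave 0.599, 0.599, 0.372, 0.249 and 0.432, and in T320 10 or more gave 0.939. Among cells with 3 or more other-member UMIs, the 1 member higher in T1 became 2 at 5 or more and 4 at 10 or more, the 5 lower became 2 at 10 or more, and the 2 lower in T320 became 4. The other 115 alternatives of these results stayed within 1.5 times a count or within the counting interval. Settings on 2000 or more UMIs, on 10 or more mitotic UMIs and on shared sequence were chosen after seeing the data.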

Other observations

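Genes of G1 and S phase gave another reading of proliferation. The G1/S and replication list (45 genes, all tested) summed to 31.8 UMIs per 10000 in C, 21 in T1 and 32.1 in T320. On that scale, of total UMIs, the list in T320 stood at the untreated level. In between, from T2.5 to T160, it was 25.4, 22.9, 31.2, 31.2, 35.7, 27.1 and 29.1. T20, where the mitotic sum was lowest, stood at 0.979 of C for this list (counting interval 0.959 to 0.999). In T1, 7 of the 45 were 2-fold lower and 0 higher, where 2.28% of all genes were lower and 4.41% higher. Along the escalation BRIP1 (0.20), a helicase partner of BRCA1, PRIM1 (0.21), a primase subunit, and UBR7 (0.16) rose. RRM2 (-0.22), the regulated subunit of ribonucleotide reductase, and USP1 (-0.11), which removes ubiquitin from PCNA, fell by edgeR's test. Over all genes 8.03% rose and 8.99% fell. PRIM1, UBR7 and RRM2 share 42.9%, 26.7% and 49.9% of their end sequence. ATAD2 and MCM7, the 2 of highest mean CPM, were at 280.2 CPM in C, 225 in T1 and 354 in T320, and at 249 CPM in C, 191 in T1 and 284 in T320.

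Of 8 CDK inhibitors, CDKN1A (p21), the best known p53 target, rose (0.28 per step). Its levels were 34.7 CPM in C, 57.9 in T1 and 239.6 in T320. CDKN1C (p57) rose as well (0.26). CDKN2A, which codes for p16 and ARF, fell (-0.26) and was at 1201 CPM in C, 802 in T1 and 243 in T320. Of 8 G1 cyclins and CDKs tested, CCND1 (cyclin D1) fell (-0.27) and 0 rose, beside 8.99% and 8.03% of all genes. It was at 138 CPM in C, 267 in T1 and 52.4 in T320, and CDK6 at 154 CPM in C, 263 in T1 and 98.7 in T320. Of the 8, 0 were 2-fold higher in T1 than in C and 1 was 2-fold lower, with a median difference of -0.43. The shares of all genes were 4.41% higher and 2.28% lower.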
